A study of Mus musculus with 24 samples.

Results

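The naive pluripotency transcription factors Nanog, Klf2, Klf4, Klf5, Esrrb, Tfcp2l1, Tbx3, Zfp42, Prdm14 and Nr0b1 were followed in mouse embryonic stem (ES) cells lacking a subunit of the m6A RNA methyltransferase. The 10 genes were taken by name, through the symbol of their Ensembl gene ID, from 47937 genes in the RNA-seq counts and from 49090 genes and repeat subfamilies in the MeRIP-seq counts. MeRIP-seq is the sequencing of RNA fragments pulled down with an antibody against m6A (IP), beside the fragments before the pull-down (input). All 10 genes passed the filter on low counts in both assays, with at least 210 reads in each RNA-seq library and at least 68 reads in each MeRIP-seq library.

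Naive pluripotency is the state of ES cells that resembles the early epiblast of the blastocyst. It is held by a network of transcription factors that activate each other and is fed by leukemia inhibitory factor (LIF) acting through Stat3. Mettl3 is the catalytic subunit and Mettl14 the RNA-binding partner of the complex that methylates adenosine within short sequences such as GGACT, often in long last exons near the stop codon, and m6A on mRNA is known to shorten the lifetime of many transcripts.

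The cells were of mixed 129/Sv x C57Bl6 background, as given for the RNA-seq libraries, and were kept with serum replacement and LIF on gelatin. WT26 is the wild-type line. Mettl14 KO is a clone derived from WT26 by CRISPR/Cas9, with a homozygous small deletion in Mettl14 that shifts the reading frame and leaves a truncated protein. Guides against both Mettl3 and Mettl14 were transfected together, and the paper reports the targeted Mettl3 domain as intact in this clone. RBC is the parental line of the other knockout and carries the biotin ligase BirA with a V5 tag at Rosa26 and Cre-ERT2. Mettl3 KO is a clone derived from RBC and shares these alleles. Each knockout was thus represented by 1 clone, so a knockout and a clonal difference cannot be told apart, and the 2 libraries of a group measure the spread between preparations of the same line.

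Nuclear RNA of the 4 lines gave 2 RNA-seq libraries each (8 libraries, 11321459 to 13743181 reads counted on genes) and 2 input and 2 IP libraries each (16 libraries, 9394163 to 28441282 reads counted on genes and repeats). The libraries labelled replicate 2 were the shallower ones in each MeRIP-seq group. Markers of ES cells were abundant in all lines, with summed normalized counts of 5715 to 8985 over 5 genes. Mettl14 transcripts were lower in Mettl14 KO (log2 fold change -0.31, adjusted p = 0.00609 in edgeR), and Mettl3 transcripts were higher there (0.41, adjusted p = 0.000112). In Mettl3 KO, Mettl3 transcripts did not pass the test (log2 fold change -0.16, adjusted p = 0.0588). A gene-level count does not check a small deletion such as the one in Mettl14. The 2 RBC RNA-seq libraries differed more from each other than those of the other lines, with a chi-square of 39.8 per degree of freedom against 2.95 to 6.31.

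The genes are placed as in GENCODE M21 on GRCm38, with Nanog at chr6:122707489-122714633, Esrrb at chr12:86361117-86521628, Tfcp2l1 at chr1:118627945-118685168, Tbx3 at chr5:119670669-119684724 and Nr0b1 at chrX:86191764-86195947. Of the Krüppel-like factors, Klf2 lies at chr8:72319033-72321656, Klf4 at chr4:55527143-55532466 and Klf5 at chr14:99298691-99315036. Zfp42 lies at chr8:43295063-43306980 and Prdm14 at chr1:13113457-13127163.

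GGACT was located in the transcripts first, because it is a form of the RRACH motif on which the enzyme is known to act. In this motif R is A or G, and H is A, C or U. Forms of RRACH without GGAC were not counted. In the GENCODE transcript with the longest coding sequence (GRCm38), GGACT was found on the sense strand in 9 of the 10 transcripts, and in 90.8% of the 14793 protein-coding genes tested in MeRIP-seq. Its density was 1.27 per kb in the median member and 1.05 per kb in the median of all those genes. Nr0b1 was the member without any GGACT, and it held 3 copies of the shorter GGAC, a density above that of only 4.79% of genes. Tfcp2l1 carried 16 copies, 14 of them in a last exon of 7781 bases that makes up 84.0% of its transcript. The windows below are the GGACT nearest to the stop codon in the members whose IP signal is described at length, with the motif in capitals, and all were identical to the genome sequence at these coordinates.
Klf2: aacgtgttGGACTtcatcctc
Klf4: acatgcccGGACTtacaaaat
Nanog: ttcggggaGGACTttctgcag
Klf5: cttgacgtGGACTcgtttttt
Tfcp2l1: tgaagtgtGGACTctgagcag
Prdm14: tgctgctaGGACTtaactgct
The Klf2 window (chr8:72319477-72319497, plus strand) lay in the coding sequence, at position -931 counted from the last base of the stop codon, and was the only GGACT of that transcript, although Klf2 held 12 copies of GGAC. The Klf4 window (chr4:55527794-55527814, minus strand) lay in the 3′ UTR, 321 bases after the stop codon. The Nanog window (chr6:122713388-122713408, plus strand) lay in the coding sequence at position -157. The Klf5 window (chr14:99313747-99313767, plus strand) lay in the 3′ UTR and is the nearest one that is not split by an intron. In Tfcp2l1 (chr1:118677418-118677438, plus strand) the A of the motif was at position -6, so that the stop codon itself lay within the window. The single GGACT of Prdm14 (chr1:13113835-13113855, minus strand) lay in the 3′ UTR.

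Levels in the control lines were compared per kb of annotated exon, on the scale of RNA-seq normalized counts. Zfp42 was highest in all 4 lines, with 2411 ± 8.89 (SD, n = 2) per kb in WT26 and 1611 ± 67.0 in RBC, followed by Nanog with 864 ± 38.0 and 893 ± 21.7. Esrrb and Tfcp2l1 came next in WT26 with 577 ± 1.35 and 547 ± 7.85. Nr0b1 and Klf4 did not differ beyond their spread in WT26, with 461.3 ± 0.946 and 461.2 ± 14.3. Prdm14 was lowest in WT26, with 110.4 ± 6.06 per kb. In RBC, Klf2 with 180 ± 20.7 and Tbx3 with 179 ± 6.58 did not differ beyond their spread on this scale. The scale divides by all annotated exons of a gene, 6624 bases for Tbx3, where the transcript searched for GGACT had 4856. For Klf2 both lengths were 1847.

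The loss of Mettl14 was accompanied by lower RNA of the naive factors as a group. In Mettl14 KO against WT26, 9 of the 10 genes were lower at an adjusted p of at most 0.05 in edgeR, where 27% of the 17021 genes tested were lower and 25.5% higher, and none was higher. The libraries of all 10 lay below those of WT26 without overlap, as did those of 38.7% of genes. The tenth, Prdm14, was also below WT26 but missed the threshold. None of the 10 passed the further limit of a 2-fold change, which 6.57% of genes passed downward. The median log2 fold change was -0.56 for the 10 genes and 0 for all genes tested.

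Nanog, the homeodomain factor at the centre of the network, had RNA-seq normalized counts of 1876 and 1997 in the WT26 libraries and of 1076 and 1164 in Mettl14 KO. The knockout libraries lay well below the controls, with a log2 fold change of -0.79 ± 0.05 (SE), adjusted p = 9.98e-10. Esrrb, an orphan nuclear receptor that binds many of the same enhancers, had 3493 and 3482 in WT26 and 2755 and 2800 in Mettl14 KO, a smaller reduction of -0.33 ± 0.05 on the log2 scale (adjusted p = 2.86e-05).

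Tfcp2l1, a grainyhead-like factor that acts downstream of LIF and Stat3, had 5214 and 5109 normalized counts in WT26 and 2708 and 2790 in Mettl14 KO. Tbx3, a T-box factor of the same network, had 1662 and 1534 in WT26 and 774 and 838 in Mettl14 KO. These were the deepest reductions of the group, to 0.533 and 0.504 of the WT26 level, with log2 fold changes of -0.91 ± 0.05 (adjusted p = 1.29e-10) and -0.99 ± 0.06 (adjusted p = 4.24e-10). Tbx3 stood at the 2-fold limit and passed it without WT26 replicate 2 (-1.05) or without Mettl14 KO replicate 2 (-1.04). Nr0b1 (Dax1), an orphan nuclear receptor that restrains Oct4, had 833 and 835 in WT26 and 508 and 499 in Mettl14 KO, a log2 fold change of -0.73 ± 0.07 (adjusted p = 6.06e-08).

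The Krüppel-like factors Klf2, Klf4 and Klf5 bind similar GC-rich sites and can in part replace each other. Klf2 had 648 and 723 normalized counts in WT26 and 452 and 438 in Mettl14 KO, a log2 fold change of -0.62 ± 0.09 (adjusted p = 9.99e-06). Klf4, a direct target of Stat3, had 1437 and 1375 in WT26 and 1131 and 1052 in the knockout (-0.37 ± 0.05, adjusted p = 1.48e-05). Klf5 had 696 and 825 in WT26 and 540 and 528 in the knockout (-0.51 ± 0.08, adjusted p = 3.68e-05). The knockout libraries lay below the controls for each of these factors, by less than 2-fold.

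Zfp42 (Rex1), a zinc finger protein widely used as a reporter of the naive state, moved least among the genes that passed, from 4547 and 4523 in WT26 to 4041 and 4034 in Mettl14 KO (-0.17 ± 0.05, adjusted p = 0.00594). Prdm14, which represses FGF signalling and the de novo DNA methyltransferases, had 272 and 294 in WT26 and 266 and 205 in Mettl14 KO. The knockout pair lay just below the control pair and was widely spread, and the log2 fold change of -0.26 ± 0.11 had an adjusted p of 0.0528.

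**Figure D1:**
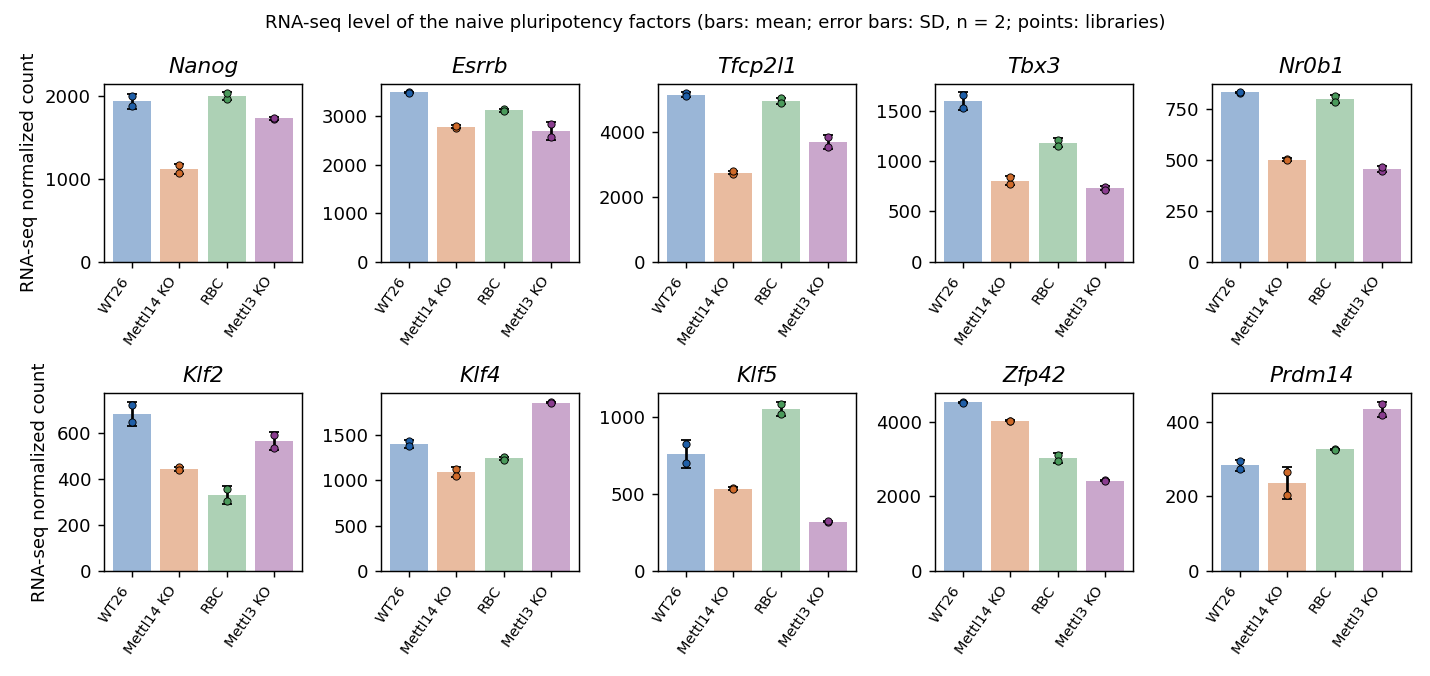
RNA-seq normalized counts (vertical axis, from 0) of the 10 factors in the 4 lines, with bars at the mean, error bars of 1 SD (n = 2) and a point for each library. The Mettl14 KO libraries sit below WT26 for all 10 genes, while Mettl3 KO sits below RBC for 7 genes and above it for Klf2, Klf4 and Prdm14.

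In the Mettl3 knockout the naive factors did not move in one direction. All 10 genes passed an adjusted p of 0.05 in edgeR against RBC. Of these, 7 were lower and 3 were higher, where 28.1% of all genes were lower and 25.2% were higher. The libraries did not overlap for any of the 10, and the same held for 38.3% of genes downward and 37.4% upward. The median log2 fold change of the 10 was -0.27 and that of all genes 0.00 to 2 decimals. Only Klf5 passed the 2-fold limit, which 7.43% of genes passed downward. Without either of the RBC libraries, which stood further apart than other pairs, 7 genes were still lower and 3 higher, and Klf5 was at -1.67 and -1.77.

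Klf5 had 1084 and 1016 normalized counts in RBC and 317 and 320 in Mettl3 KO. The knockout retained 0.304 of the RBC level, with a log2 fold change of -1.72 ± 0.08 and an adjusted p of 1.36e-11. Klf2 and Klf4 moved the other way. Klf2 had 359 and 305 in the RBC libraries and 537 and 592 in Mettl3 KO, 1.7-fold higher (0.77 ± 0.09, adjusted p = 1.43e-06). Klf4 had 1255 and 1230 in the RBC libraries and 1868 and 1852 in Mettl3 KO, 1.5-fold higher (0.58 ± 0.05, adjusted p = 3.95e-08). Within this family the knockout libraries therefore lay above the controls for 2 genes and below them for the third, with no overlap.

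Among the other factors, Nr0b1 and Tbx3 were reduced most. Nr0b1 fell from 815 and 789 normalized counts in RBC to 446 and 467 in Mettl3 KO (-0.81 ± 0.07, adjusted p = 1.6e-08), and Tbx3 from 1215 and 1153 to 746 and 715 (-0.70 ± 0.06, adjusted p = 5.07e-08). Tfcp2l1 fell from 5041 and 4908 to 3837 and 3530 (-0.43 ± 0.05, adjusted p = 1.32e-06), and Zfp42 from 3120 and 2942 to 2443 and 2410 (-0.32 ± 0.05, adjusted p = 1.95e-05).

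Nanog and Esrrb were only slightly lower in Mettl3 KO. Nanog had 1967 and 2036 normalized counts in RBC and 1722 and 1740 in Mettl3 KO (-0.21 ± 0.05, adjusted p = 0.00211), and Esrrb had 3146 and 3098 in RBC libraries against 2832 and 2563 in the knockout (-0.21 ± 0.05, adjusted p = 0.00191). These were the 2 genes that no longer passed the adjusted p when the libraries were scaled by their totals. That scaling moved the median of all genes in this comparison from 0.00 to 0.15. Prdm14 rose from 326 and 325 in RBC to 418 and 448 in Mettl3 KO (0.41 ± 0.10, adjusted p = 0.00238).

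The parental lines were not alike for all of these genes. In RBC against WT26, 5 of the 10 genes were lower and 1 was higher at an adjusted p of at most 0.05, where 19.2% and 19.7% of all genes were. Klf2 was the one past the 2-fold limit, with 0.483 of the WT26 level in RBC (-1.05 ± 0.09, adjusted p = 5.75e-08), where 4.12% of genes passed the limit downward. It fell short of the limit without RBC replicate 2 (-0.93) or WT26 replicate 2 (-0.97). The 537 and 592 normalized counts of Klf2 in Mettl3 KO, although above RBC, were thus below the 648 and 723 of WT26. Zfp42 (-0.58), Tbx3 (-0.43), Klf4 (-0.18) and Esrrb (-0.16) were also lower in RBC and Klf5 (0.47) was higher, with adjusted p from 2.7e-08 to 0.0173. Nanog, Tfcp2l1, Prdm14 and Nr0b1 had log2 differences of 0.05, -0.05, 0.20 and -0.06 between the parental lines and did not pass.

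The difference between the 2 knockout effects was tested directly, as the log2 fold change in Mettl3 KO minus that in Mettl14 KO. It passed an adjusted p of 0.05 for 7 of the 10 genes, where 43.2% of all genes passed, and also the 2-fold limit for 2 genes, where 14% of all genes did. Klf2 moved in opposite directions, with a difference of 1.39 ± 0.13 (adjusted p = 1.14e-07). Klf5 was reduced in both lines and more in Mettl3 KO, with a difference of -1.21 ± 0.11 (adjusted p = 1.95e-07). Klf4 (0.95 ± 0.07, adjusted p = 1.87e-08) and Prdm14 (0.67 ± 0.15, adjusted p = 0.00142) also differed, as did Nanog (0.58), Tfcp2l1 (0.48) and Tbx3 (0.29), which were reduced less in Mettl3 KO. Nr0b1 had a difference of -0.08, with a 95% interval of -0.27 to 0.10, Esrrb of 0.12 (-0.02 to 0.26) and Zfp42 of -0.15 (-0.28 to -0.02), and these 3 did not pass.

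The input libraries of MeRIP-seq gave a second measurement of transcript level in separate libraries. All 20 values, 10 genes in 2 knockouts, had the same sign as in RNA-seq, where 79.9% of genes tested in both assays did in Mettl14 KO and 79.8% in Mettl3 KO. The spread was wider, and no gene passed an adjusted p of 0.05 in Mettl14 KO, where 0.398% of features passed (90 of 22621, and 2389 at an unadjusted p below 0.05), with log2 fold changes from -0.81 for Tbx3 to -0.17 for Prdm14. DESeq2 also called none of the 10. In Mettl3 KO, 1 gene passed, where 0.76% of features did. Klf5 had input normalized counts of 1360 and 942 in the RBC libraries and 375 and 393 in Mettl3 KO (-1.58 ± 0.29, adjusted p = 0.0221). Its call was lost without either Mettl3 KO input library or without RBC input replicate 1. Klf2 was at 0.39 ± 0.50 and Klf4 at 0.07 ± 0.51 in these libraries, and neither passed (adjusted p = 0.861 and 0.987). With the replicate number as a block within input and within IP, a fit added after seeing the data and called the number block here, 3 genes passed in Mettl3 KO and 1 in Mettl14 KO, all lower.

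**Figure D2:**
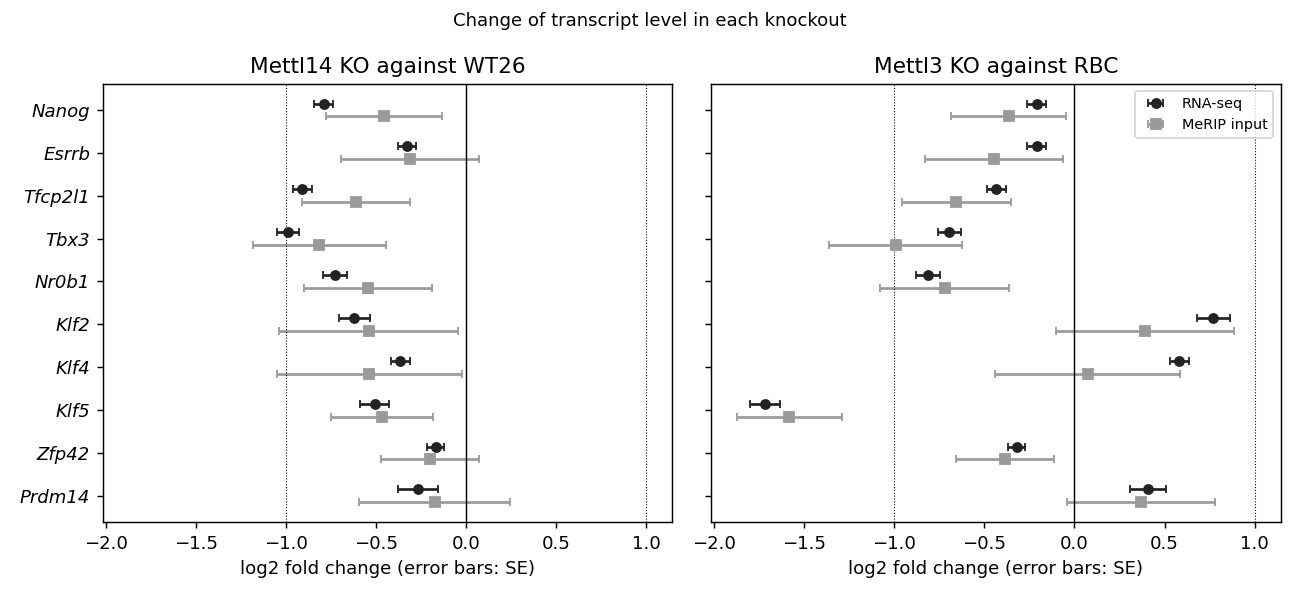
Log2 fold change (horizontal axis, error bars of 1 SE) of the 10 factors in Mettl14 KO against WT26 and in Mettl3 KO against RBC, from RNA-seq (black circles) and from the MeRIP-seq input libraries (grey squares), with dotted lines at a 2-fold change. The 2 assays share the sign for all 10 genes in each knockout, and Klf5 in Mettl3 KO is the one gene beyond the 2-fold line in both.

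Other genes of the pluripotency program give the surroundings of these changes. Of 8 core pluripotency genes, 8 were lower in Mettl14 KO and 7 in Mettl3 KO at an adjusted p of at most 0.05, with medians of -0.58 and -0.43, against 27% and 28.1% of all genes lower. Pou5f1 (Oct4) had log2 fold changes of -0.60 and -0.60, Sox2 of -0.55 and -0.29, and Lin28a, an RNA-binding protein that blocks let-7 processing, of -1.02 and -1.03. Of 10 further genes of the naive state, 6 were lower and 3 higher in Mettl14 KO, and 7 were lower and 3 higher in Mettl3 KO, where 25.5% and 25.2% of all genes were higher. Gbx2 fell by 1.76 in Mettl14 KO, while Dppa5a (-2.03) and Cdh1, the E-cadherin gene (-1.29), fell in Mettl3 KO. Dppa3 (Stella) rose in both (2.67 and 2.70) from low counts, and Spic rose in Mettl3 KO (2.01).

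Of 8 LIF and Stat3 pathway genes, 6 were lower in Mettl14 KO (27% of all genes), where Pim3 (-1.26) and Myc (-1.65) passed the 2-fold limit, and 7 were lower and 1 higher in Mettl3 KO (28.1% and 25.2% of all genes). The formative and primed genes take over when cells leave the naive state. Of the 9 tested, 4 were lower and 3 higher in Mettl14 KO, with Pou3f1 (-3.06) and Foxd3 (-2.60) past the 2-fold limit, and 2 were lower and 3 higher in Mettl3 KO, with Lef1 (3.52) and Zic2 (1.12) past it, where 6.15% of all genes were past it upward. These counts lie near the shares of all genes at this p. Among 7 repressors and exit factors, 4 were lower and 1 was higher in Mettl14 KO, where 27% and 25.5% of all genes were. In Mettl3 KO Tcf7l1, a repressor of Nanog, Esrrb and Klf2, was the one that passed (1.14). These lists were chosen with results of these data known.

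Most markers of primitive endoderm were higher in Mettl14 KO than in WT26. Their summed normalized counts over 6 genes were 99.8 to 103 in WT26 and 308 to 324 in Mettl14 KO, and none of the 6 was at 0 in both libraries of any line. In Mettl14 KO all 5 that could be tested passed the 2-fold limit upward (Gata4, Gata6, Sox7, Dab2 and Pdgfra, 1.41 to 2.06), where 7.95% of all genes did, and in Mettl3 KO Sox7 passed it downward (-1.24). Sox17, which was not tested, had 6.33 and 7.52 normalized counts in WT26 and 6.01 and 1.95 in Mettl14 KO. The sums were 162 to 176 in RBC and 118 to 147 in Mettl3 KO. Dab2 had 57.5 and 84.8 in RBC and 77.1 and 63.3 in Mettl14 KO, and Sox7 had 25.3 and 25.6 against 15.0 and 22.4. Gata4, Gata6 and Pdgfra were lower in RBC than in Mettl14 KO. The 5 ES cell markers summed to 8751 to 8985 in WT26, 5715 to 5860 in Mettl14 KO, 8898 to 8969 in RBC and 6210 to 6840 in Mettl3 KO. Markers of the 2-cell-like state summed to 85.9 to 116 in WT26, 24.4 to 30.1 in Mettl14 KO, 72.0 to 105 in RBC and 26.2 to 31.3 in Mettl3 KO. The 3 genes of this list that could be tested passed the 2-fold limit downward in both knockouts, where 6.57% and 7.43% of all genes did. They were Zscan4c (-1.86 and -1.22), Zscan4d (-1.82 and -1.49) and Gm8300 (-2.44 and -3.06).

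Markers of other lineages were low, and some differed between a knockout and its parental line. The mesoderm sums over 5 genes were 56.1 to 73.0 in WT26 and 20.03 to 25.3 in Mettl14 KO, where Kdr was lower (-2.62), and 63.1 to 64.4 in RBC and 46.3 to 63.5 in Mettl3 KO. The fibroblast sums were 81.4 to 84.8 in WT26 and 27.3 to 38.1 in Mettl14 KO, and 103 to 116 in RBC and 44.4 to 62.5 in Mettl3 KO, with Thy1 lower in both knockouts (-2.03 and -2.62) and Col1a2 higher in Mettl3 KO (2.26). The neural sums were 279 to 323 in WT26 and 250.4 to 261 in Mettl14 KO, and 376 to 381 in RBC and 439 to 468 in Mettl3 KO, with Pax6 higher (1.96 and 1.21) and Neurod1 lower (-2.81 and -1.19) in both knockouts. The trophoblast sums were 34.4 to 35.4 in WT26, 55.1 to 56.5 in Mettl14 KO, 25.6 to 26.4 in RBC and 28.7 to 36.3 in Mettl3 KO, and no gene of that list passed. In bulk RNA, fewer cells that express a gene and less RNA per cell cannot be told apart, and the part of these marker changes in the levels of the naive factors was not tested.

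Across the 8 RNA-seq libraries, Tfcp2l1 followed the mean standardized log2 level of the 10 genes most closely (Pearson r = 0.947), then Tbx3 (0.907) and Esrrb (0.895), whereas Prdm14 (0.125), Klf4 (0.191), Zfp42 (0.291) and Klf2 (0.332) followed it little. Each of these genes is part of that mean, which raises its own r. Outside the lists, Prkci, Wdr5 and Prx had the most similar profiles (r from 0.994 to 0.996), but 488 of 11826 genes had an r above 0.9, and the 8 libraries come from 4 lines.

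IP over input was used as the measure of m6A on a transcript. It is relative to the median feature of the library pair, because the libraries were scaled to the median feature. Scaling by library totals raised the median feature by 0.38 to 0.47 and scaling on repeat subfamilies by 0.75 to 1.44 on the log2 scale. Enrichment was called where log2 IP over input exceeded 1 and the adjusted p did not exceed 0.05.

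Most naive factors were enriched in the IP in the control lines. In WT26, 7 of the 10 genes were called enriched, where 14.5% of the 22621 features tested were, and in RBC the same count of 7 was called, where 13.4% were. The genes called were Nanog, Klf2, Klf4, Klf5, Tbx3, Zfp42 and Nr0b1 in both lines. The median log2 IP over input of the 10 genes was 1.20 in WT26 and 1.19 in RBC, and that of all features 0.02. The features include repeat subfamilies and noncoding genes, and no share was computed over genes of like read number. Groups of protein-coding genes ranked by GGACT density had medians from 0.17 to 0.38 in WT26.

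Klf2 and Klf4 led. For Klf2 the ratio of IP to input normalized counts was 3.51 and 6.78 in the 2 WT26 replicates and 2.87 and 7.36 in RBC, a log2 enrichment of 2.33 ± 0.51 (adjusted p = 0.00808) and 2.45 ± 0.52 (adjusted p = 0.00943). Klf4 had ratios of 2.78 and 5.46 in WT26 and 2.7 and 5.56 in RBC (2.08 ± 0.53, adjusted p = 0.0124, and 2.15 ± 0.53, adjusted p = 0.0138). Replicate 2 was higher than replicate 1 in both lines. Klf5 had ratios of 2.25 and 3.04 in WT26, and of 2.12 and 3.92 in RBC (1.40 ± 0.29 and 1.51 ± 0.29).

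Nr0b1 was also enriched, with ratios of 2.72 and 3.23 in WT26 and 2.19 and 3.82 in RBC (1.59 ± 0.35, adjusted p = 0.00839, and 1.58 ± 0.35, adjusted p = 0.0107). Its transcript held no GGACT, but forms of the RRACH motif without GGAC were not counted. Zfp42 (1.30 and 1.22), Nanog (1.10 and 1.07) and Tbx3 (ratios of 1.64 and 2.39 in WT26, and of 1.74 and 2.59 in RBC) followed, with adjusted p from 0.00761 to 0.0495. Tbx3 in WT26 lay at the limit, and with the number block it was 0.98 with an adjusted p of 0.00041. Esrrb (0.60 and 0.45) and Prdm14 (0.96 and 0.80) were above 0 without passing.

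Tfcp2l1 was the exception. Its ratios were 0.516 and 0.286 in WT26 and 0.547 and 0.301 in RBC, below 1 in all 4, and its log2 IP over input was -1.33 ± 0.30 (adjusted p = 0.00907) and -1.31 ± 0.30 (adjusted p = 0.0114). It was thus depleted from the IP relative to the median feature, with 16 copies of GGACT in its transcript. Over the 14793 protein-coding genes, log2 IP over input in WT26 had a Spearman rho of 0.0774 with GGACT density and of 0.173 with the length of the last exon, both given as descriptions across genes that share libraries.

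**Figure D3:**
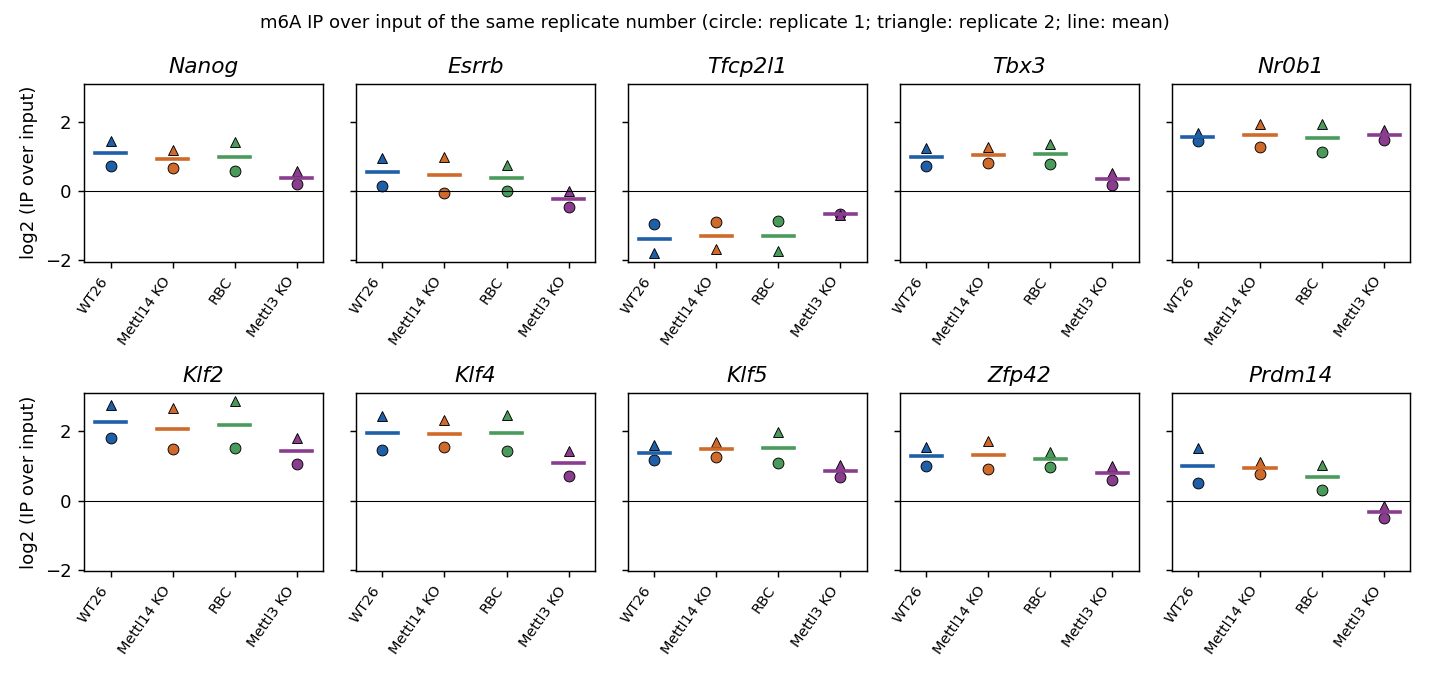
Log2 of IP over input normalized counts (vertical axis) of the 10 factors in the 4 lines, with a circle for replicate 1, a triangle for replicate 2 and a line at their mean. Replicate 2 lies above replicate 1 for 9 of 10 genes in each line, Tfcp2l1 lies below 0 throughout, and the Mettl3 KO means are the lowest of the 4 lines for 8 genes.

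These enrichment calls depended on single libraries. Without input replicate 2 or IP replicate 2 of the same line, 0 of the 10 genes were called in WT26, Mettl14 KO or RBC, and without input replicate 1 the counts were 3, 0 and 1. Without IP replicate 1 they were 7, 8 and 8. The remaining lone library was then assumed to vary like the other groups. Same-numbered libraries deviated together, and 6, 6 and 7 genes were called in WT26, Mettl14 KO and RBC with the number block.

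In Mettl14 KO the enrichment of the naive factors was like that of WT26 in the measured values. There, 6 of the 10 genes were called, where 11.9% of features were, and Nanog (0.97, adjusted p = 0.0409) fell just under the limit of 1. Klf2 kept ratios of 2.79 and 6.44 (2.20 ± 0.51, adjusted p = 0.0129) and Klf4 of 2.94 and 5.01 (2.04 ± 0.53, adjusted p = 0.0174). The change of IP over input against WT26 lay between -0.13 for Nanog and 0.12 for Klf5, with a median of 0.00 for the 10 genes and 0.02 for all features. None of the 10 genes, and 0% of features, passed an adjusted p of 0.05 in edgeR, and DESeq2 called 1 feature and none of the 10. An unadjusted p below 0.05 was reached by 126 of 22621 features, fewer than the 1131 expected by that p alone. In simulated data this test recovered 30.5% of 4-fold changes, so a missing call does not show an unchanged value. The simulated libraries varied independently, unlike the same-numbered libraries here, so the recovery in these data is not known. The 95% intervals of this fit were wide, for Klf2 -1.49 to 1.24 and for Nanog -1.01 to 0.75. The fit had no term for the replicate number, although same-numbered libraries deviated together, so its intervals include that shared deviation. A change within them could not be told from no change in this fit.

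In Mettl3 KO the IP to input ratios of most naive factors lay below those of RBC, although no change passed the test. Only Nr0b1 of the 10 genes was called enriched, where 2.54% of features were, and a replicate block by pairs of input and IP also called 1 gene. With the number block, added after seeing the data, 3 were (Nr0b1, Klf2 and Klf4). The ratio of IP to input was below that of RBC within both replicate numbers for 8 of the 10 genes, and for 35.9% of features. For 5 of the 8 the Mettl3 KO pair lay below the RBC pair without overlap, where 20.5% of features did, and for Tfcp2l1 above it, where 19.2% did. The median change of log2 IP over input was -0.67 for the 10 genes and 0.01 for all features.

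Prdm14 had the lowest value, with ratios of 1.24 and 2.05 in the RBC libraries and 0.706 and 0.903 in Mettl3 KO, a change of -1.12 ± 0.57 on the log2 scale. Klf4 went from 2.7 and 5.56 to 1.63 and 2.71 (-1.03 ± 0.72), and Klf2 from 2.87 and 7.36 to 2.07 and 3.5 (-0.97 ± 0.70). Both remained above 1, and their log2 IP over input in Mettl3 KO was 1.47 for Klf2 (adjusted p = 0.0931, and 0.000151 with the number block) and 1.12 for Klf4 (adjusted p = 0.192, and 0.000415 with the number block). Tbx3 went from 1.74 and 2.59 to 1.12 and 1.43 (-0.82 ± 0.52) and Nanog from 1.5 and 2.67 to 1.15 and 1.49 (-0.67 ± 0.45). The Mettl3 KO ratios of Tbx3 and Nanog lay between 1.12 and 1.49, nearer to the median feature than those of RBC.

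The values for Esrrb (-0.66 ± 0.54), Klf5 (-0.63 ± 0.40) and Zfp42 (-0.42 ± 0.39) were also below 0. Klf5 kept ratios of 1.62 and 2.05 and Zfp42 of 1.51 and 2. The enrichment of Klf5 and Zfp42 passed the p limit with the number block (adjusted p = 0.00112 and 0.000421) with log2 values of 0.87 and 0.80.

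Nr0b1 and Tfcp2l1 were the 2 genes with values above 0. Nr0b1 had ratios of 2.19 and 3.82 in the RBC libraries and 2.79 and 3.43 in Mettl3 KO, a change of 0.07 ± 0.49 with a 95% interval of -0.89 to 1.04, and its log2 IP over input of 1.65 ± 0.36 in the knockout was called (adjusted p = 0.0238). The call was lost without either Mettl3 KO input library or IP replicate 2. Tfcp2l1 had ratios of 0.547 and 0.301 in the RBC libraries and 0.637 and 0.619 in Mettl3 KO, closer to 1 in the knockout (0.64 ± 0.42), with the pairs not overlapping.

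No single change passed the test. Fewer features in the edgeR fit without the number block reached an unadjusted p below 0.05 than the 1131 expected by that p alone. In edgeR 0 of the 10 genes and 0% of the 22621 features passed in Mettl3 KO against RBC (787 features had an unadjusted p below 0.05, and DESeq2 called 0), and the adjusted p of the 10 genes lay between 0.854 and 0.98. With the number block they lay between 0.125 for Klf4 and 0.835 for Nr0b1, and in DESeq2 with the number block, which called 146 features, between 0.0929 and 0.891. The test of Mettl3 KO against Mettl14 KO in their changes of IP over input called 0% of features in edgeR and none of the 10 genes (214 features at an unadjusted p below 0.05, and 0 by DESeq2), with adjusted p of 1, so a difference between the knockouts in m6A of these genes was not shown. Scaling on repeat subfamilies moved the median change of all features in Mettl3 KO to -0.52 and that of the 10 genes to -1.30. The relation of IP over input to the length of the last exon over 14793 genes, a rho of 0.174 in RBC, was -0.011 in Mettl3 KO, and 0.144 in Mettl14 KO. The rho with GGACT density was 0.0767 in RBC, 0.04 in Mettl3 KO and 0.0854 in Mettl14 KO.

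**Figure D4:**
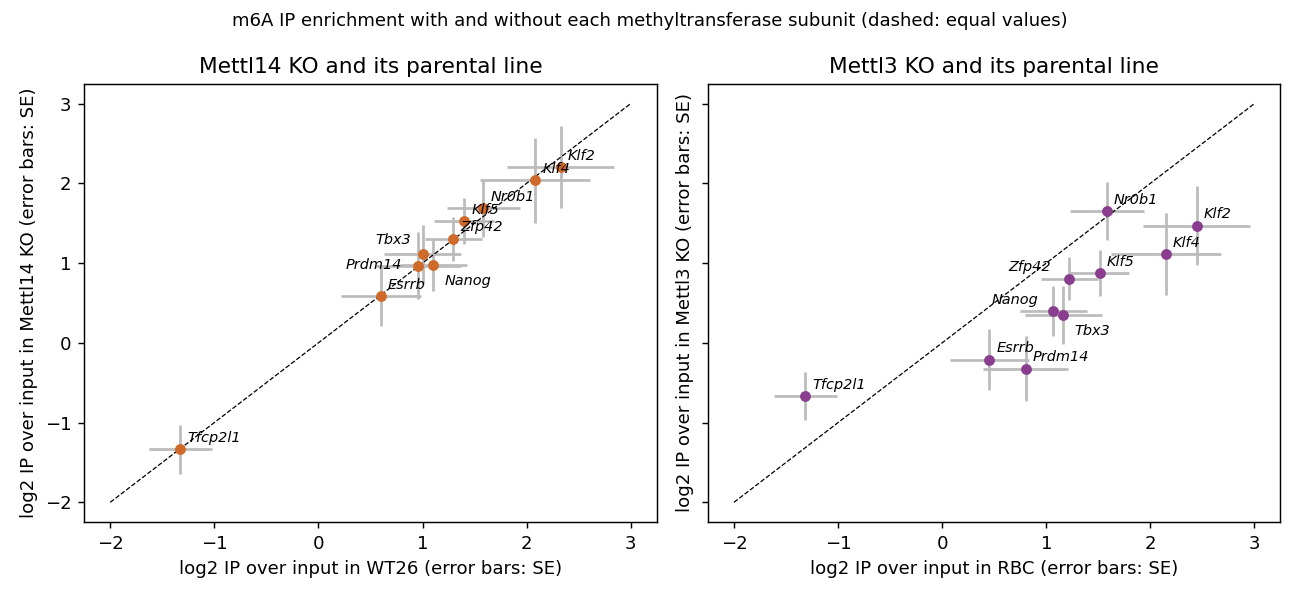
Log2 IP over input of the 10 factors in each knockout (vertical axis) against its parental line (horizontal axis), with error bars of 1 SE and a dashed line of equal values. The Mettl14 KO points lie along the line, while in Mettl3 KO 8 genes lie below it, Nr0b1 on it and Tfcp2l1 above it.

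The changes of transcript level and of IP over input in Mettl3 KO are given side by side. Klf2 and Klf4, with the highest IP over input in RBC and values of -0.97 and -1.03 for its change, had higher RNA (log2 fold changes 0.77 and 0.58), and Prdm14 (-1.12 in IP over input) did too (0.41). Klf5, at -0.63, had the lowest RNA (-1.72). RNA was also lower for Tbx3 (-0.82 in IP over input and -0.70 in RNA), Nanog (-0.67 and -0.21), Esrrb (-0.66 and -0.21) and Zfp42 (-0.42 and -0.32), so that 5 of the 8 genes with a value below 0 in IP over input had lower RNA and 3 had higher RNA. Nr0b1, at 0.07, had -0.81 in RNA, and Tfcp2l1, at 0.64, had -0.43. In Mettl14 KO, where the changes of IP over input lay between -0.13 and 0.12, RNA changes ranged from -0.17 to -0.99. The RNA-seq and MeRIP-seq values come from separate libraries of the same lines, and no correlation over 10 genes was tested.

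Counting limits touch 4 genes. Nanog and Zfp42 have pseudogene copies, Nanog-ps1 and Zfp42-ps1, that match the transcript at 97.5% over 245 bases and 98.1% over 266 bases, so that reads from these stretches could be counted on either. Tbx3 overlaps the antisense gene Tbx3os1 and Tfcp2l1 overlaps Gm23497, Gm22094 and Gm28882, and whether strand was used in counting is not given in the sources used here.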

How the data were processed

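The deposited tables held whole-number counts of reads that the authors had assigned to genes (RNA-seq) and to genes and repeat subfamilies (MeRIP-seq), with no normalization and no pooling of replicates. Per the submitters' notes, reads were trimmed with cutadapt 1.8.1 and aligned to GRCm38 with STAR 2.6.0c. Per the study's methods, MeRIP-seq reads were assigned by TEtranscripts, which shares multimapping reads. The counting tool of the RNA-seq table is not given in the sources used here, and RNA was nuclear and ribosome-depleted, so intronic and unprocessed RNA can contribute to libraries.

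From the counts, genes were kept by filterByExpr (17021 in RNA-seq, 22621 features in MeRIP-seq), scaled with DESeq2 size factors and tested with the quasi-likelihood test of edgeR 4.0.16 in R 4.3.3, with 1 model of all libraries per assay and Benjamini-Hochberg adjustment over all features. A gene was called where the adjusted p did not exceed 0.05 and the fold change exceeded 2 in either direction (for IP over input, upward). Changes of IP over input asked for the p alone. Normalized counts are counts divided by size factors. The procedure was tested on simulated data with 4-fold changes in 200 features. At the adjusted p, 99% were recovered in RNA-seq, 74.5% for IP over input and 30.5% for its change. The simulated libraries varied independently of each other, which the MeRIP-seq libraries did not. DESeq2 1.42.0, other scalings, filters, replicate blocks and the removal of each library were alternatives. The 2 fits with the number as a block within input and within IP were added after seeing the data.

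Same-numbered MeRIP-seq libraries deviated together, most of all the IPs. The correlation of replicate differences was 0.195 to 0.28 between input and IP of a line, 0.251 to 0.452 between inputs and 0.598 to 0.806 between IPs of different lines. The labels do not say what a number marks, or that it pairs an IP with its input. The members and lists were chosen with earlier results of these data known. All 10 genes were described in every comparison; other genes were named where they passed the call in a knockout, with Pou5f1 and Sox2, and by the 3 closest profiles among genes averaging 50 normalized counts or more. The paper calls the MeRIP-seq replicates biological, and each pooled several pull-downs. They were not stated to be independent cultures in the sources used here, so p-values may measure technical spread. GGACT was searched in GENCODE M21 transcripts, and copies with blastn 2.17.0 at 95% identity over at least 200 bases.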

Additional observations from a re-analysis of the deposited data

Results flagged for a closer look

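The response of Klf2 differed between the knockouts, by the test of the difference itself. The log2 fold change in Mettl3 KO minus that in Mettl14 KO was 1.39 ± 0.13 (SE), adjusted p = 1.14e-07 in edgeR, with 0.77 in Mettl3 KO and -0.62 in Mettl14 KO. Klf2 was also the gene with the largest gap between the parental lines among the 10, at -1.05 in RBC against WT26.

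The response of Klf5 differed by -1.21 ± 0.11, adjusted p = 1.95e-07, with -1.72 in Mettl3 KO and -0.51 in Mettl14 KO. Its level in RBC was above that in WT26 (0.47). Both differences passed the 2-fold limit and the adjusted p without each of the 8 RNA-seq libraries in turn, between 1.27 and 1.51 for Klf2 and between -1.33 and -1.09 for Klf5.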

How the results depend on the processing

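In RNA-seq, the sign of each of the 10 genes held in both knockout comparisons under all alternatives. With the adjusted p alone in place of the 2-fold limit, the genes called were 9 in Mettl14 KO, 10 in Mettl3 KO, 6 between the parental lines and 7 for the difference between knockouts, against 0, 1, 1 and 2. Scaling by library size called 1 gene in Mettl14 KO and 3 for the difference between knockouts. Leaving out each library in turn called 0 to 1 in Mettl14 KO, 1 to 1 in Mettl3 KO, 0 to 1 between the parental lines and 2 to 2 for the difference. Correlations of replicate differences between lines ranged from -0.172 to 0.453 in RNA-seq, highest for RBC with Mettl3 KO. Whether these numbers mark shared preparations is not given in the labels. The replicate block called the same counts of 0, 1, 1 and 2.

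For IP over input, leaving out libraries called 0 to 7 genes in WT26, 0 to 8 in Mettl14 KO, 0 to 8 in RBC and 0 to 1 in Mettl3 KO. The replicate block by pairs of input and IP called 6, 6, 6 and 1. In Mettl3 KO, 4 genes were called when scaling by library size, 0 when scaling on repeats, 3 with no filter, 2 with DESeq2, 3 with the block by number in edgeR and in DESeq2, and 3 with only the compared libraries. For the change of IP over input, 0 of the 10 genes passed under every setting. The features passing were 24 (Mettl14 KO), 25 (Mettl3 KO), 11 (difference between knockouts) and 7 (RBC against WT26) with no filter. DESeq2 and the replicate block by pairs called 1 each in Mettl14 KO. The block by number called 1 in Mettl14 KO and 1 for the difference, and with DESeq2 it called 2 in Mettl14 KO, 146 in Mettl3 KO, 2 for the difference and 5 in RBC against WT26. The fits with the block by number were chosen after seeing the data. In the input libraries of Mettl3 KO, the 1 call past the 2-fold limit became 0 when scaling on repeats and 2 with only the compared libraries, and 0 to 1 without single libraries. The causes were not tested. Among the 10 genes, the replicate blocks took Tbx3 in WT26 under the limit, the block by pairs took Nanog in RBC just under it, the block by number added Klf2 and Klf4 in Mettl3 KO, and they changed no other call. Requiring 10 counts in every library left 1321 genes called in RNA-seq for Mettl14 KO (2471 before) and 1243 for Mettl3 KO (2312 before), as fewer genes were tested. With 2 libraries a group and 1 clone a knockout, the wide MeRIP-seq intervals limit what the changes of enrichment can show.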
